A study of Homo sapiens with 4 samples.

Results

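The 42 genes described here belong to the ATF4 pathway and the unfolded protein response: 5 sensors and transcription factors, 23 targets of ATF4, and 14 chaperones and degradation factors of the endoplasmic reticulum (ER). They were chosen by name, with earlier results of these data known, and all 42 of them were found among the 25121 genes analysed. Together they had 51 probes, 1 probe for 35 genes and several for 7. PC3 and DU145 are established human prostate cancer cell lines, and ESS2 is a nuclear protein whose depletion was the treatment. Total RNA was measured on 4 one-colour Agilent arrays, 1 per condition: PC3-shC and DU145-shC cells carried an shRNA against luciferase, and PC3-shESS2 and DU145-shESS2 cells carried an shRNA against ESS2. All 4 cultures were thus shRNA-bearing cells grown in RPMI1640 with fetal bovine serum, and no agent that causes ER stress is named in the labels. The labels describe lentiviral delivery, whereas the methods of the study describe a plasmid followed by puromycin selection for the PC3 cells, and how the DU145 cells were selected is not given in the sources used here.

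When unfolded proteins accumulate in the ER, 3 membrane sensors respond: EIF2AK3 (PERK) phosphorylates eIF2 alpha, which lowers general translation and raises that of ATF4; ERN1 (IRE1) splices the XBP1 mRNA; and ATF6 is cut to release a transcription factor. ATF4 binds C/EBP-ATF response elements (CARE) in genes for amino acid supply and stress regulation, and it is also reached by other eIF2 kinases that sense amino acid shortage, viral RNA or haem. ATF6 and spliced XBP1 act on ER stress response elements (ERSE) in chaperone genes. The ATF4 targets and the chaperone and degradation genes are therefore described as separate groups. These groups are lists of genes and not exclusive readouts of a branch, since a gene of the chaperone group can also hold a CARE. Which branch or other signal acted on a gene was not tested.

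The promoter sequences of members that carry a CARE or an ERSE are printed here because the results are ordered by the same groups. RefSeq windows (GRCh38.p14) from 250 bases before to 50 bases after the start were given for 38 of the 42 members. The ERSE was searched as CCAAT, 9 bases of any kind and CCACG on both strands, and it was found in 6 of 14 chaperone and degradation genes, in XBP1, and in 0 of 19 ATF4 targets. Over all 27305 genes with a window, 25 held it (0.0916%). In the lines that follow, capitals mark the fixed letters of the element on either strand, with 3 bases on each side, and each sequence runs 5′ to 3′ on the strand of its gene.
HSPA5: tcaCCAATcggcggcctCCACGacg
HSP90B1, first site: tgaCCAATcggaaggagCCACGctt
HSP90B1, second site: gtgCGTGGtgcggcgcgATTGGtgg
PDIA6: ggaCCAATgagccgcagCCACGgct
CRELD2: tctCGTGGcgaactcggATTGGgcc
CALR: acgCGTGGtcgaccatcATTGGtcg
CANX: cggCCAATcttcacactCCACGaag
XBP1: tggCCAATcgcggagggCCACGacc
The HSPA5 site lies at chr9:125241388-125241412 on the minus strand, and the HSP90B1 sites at chr12:103930213-103930237 and chr12:103930318-103930342 on the plus strand. PDIA6 carries its site at chr2:10812850-10812874 and XBP1 at chr22:28800600-28800624, both on the minus strand. Those of CRELD2 (chr22:49918551-49918575), CALR (chr19:12938381-12938405) and CANX (chr5:179698775-179698799) are on the plus strand. The shorter element of XBP1 and ATF6, TGACGTGG, was found in 253 genes (0.927%) and among the members only in HYOU1, at chr11:119057383-119057396 on the minus strand.
HYOU1: ccgTGACGTGGtcc

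The core of the CARE, searched as TGATGNAA on both strands, was found in 6 of 19 ATF4 targets with a window (ASNS, CEBPG, CHAC1, FGF21, SLC3A2 and SLC7A1) and in 1 of 14 chaperone and degradation genes (HERPUD1). It is short and was present in 1217 of all 27305 genes (4.46%). The 4 upstream sites of members whose mRNA was measured are given next, with capitals for the fixed letters.
ASNS: gcaTGATGaAActt
CEBPG: gtcTGATGcAAcct
CHAC1: ccgTTgCATCActc
HERPUD1: gggTTgCATCAgcc
The ASNS site lies at chr7:97872466-97872479 on the minus strand. The sites of CEBPG (chr19:33374068-33374081), CHAC1 (chr15:40953259-40953272) and HERPUD1 (chr16:56931963-56931976) are on the plus strand. A match is a match of letters, and binding was not measured.

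Values are given as scaled signal, the Agilent processed signal divided by the 75th percentile of its array, and as the log2 ratio of shESS2 over shC. Signals of different probes are not on a common scale, so levels were compared only across arrays for the same probe. With 1 array per condition no test is possible within a line, nor of a difference between the lines. The error of the scanner software on a log2 ratio was 0.204 at the median of the members in both lines, and probes spotted 10 times had a median SD of 0.084 (286 probes, PC3) and 0.0821 (283 probes, DU145) for the ratio of single spots. Neither covers the spread between cultures. A 2-fold difference was taken as the threshold. The targeted gene ESS2 went from 0.506 in PC3-shC to 0.185 in PC3-shESS2 and from 0.404 in DU145-shC to 0.0794 in DU145-shESS2, 2.74-fold and 5.09-fold lower. GAPDH differed by 0.18 and 0.04 and ACTB by 0.15 and −0.04 on the log2 scale in PC3 and DU145. Both PC3 arrays were on 1 slide and both DU145 arrays on another, so cell line and slide cannot be told apart. Epithelial markers (KRT8, KRT18, KRT19, EPCAM and CDH1) were well above background in 5 of 5 cases on every array, though EPCAM went from 10.0 in DU145-shC to 1.64 in DU145-shESS2, while the luminal prostate marker KLK3 was not well above background on any array. Of the markers of other cell types, the summed scaled signal went from 1.11 to 0.428 in PC3 and from 0.985 to 1.49 in DU145 for 4 leukocyte genes, from 1.56 to 0.345 and from 0.284 to 0.325 for 3 endothelial genes, and from 1.09 to 0.749 and from 0.472 to 0.422 for 4 fibroblast genes. The lower sums in PC3-shESS2 came mostly from single genes, CD14 (0.840 to 0.189), PECAM1 (1.29 to 0.0566) and COL1A1 (1.01 to 0.679), and VWF and CDH5 were not lower. CD3E, COL3A1 and DCN were not well above background on any array, and the part of these genes in the results was not tested. RNA from bulk cultures was measured, so fewer cells that express a gene and less RNA per cell cannot be told apart.

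The chaperone genes lay higher with the ESS2 shRNA in both lines, and the ATF4 targets lay lower in DU145. The 14 chaperone and degradation genes were higher in PC3-shESS2 in 14 of 14 cases (median log2 ratio 0.38) and in DU145-shESS2 in 12 of 14 cases (median 0.22). The 22 ATF4 targets that could be compared were lower in 12 cases in PC3 (median −0.12, and −0.22 to −0.023 over the settings tried) and in 19 cases in DU145 (median −0.43). As background, 44.3% of the 16764 genes compared in PC3 were higher and 55.7% lower, with a median of −0.06, and 47.2% of the 16842 genes compared in DU145 were higher and 52.8% lower, with a median of −0.02. The ATF4 targets as a whole were thus close to the background in PC3 and apart from it in DU145, while the chaperone genes were apart from it in both lines. The chaperone median exceeded the target median by 0.49 in PC3 and by 0.64 in DU145, which are 1.41-fold and 1.56-fold. This difference does not depend on the scaling factor of an array, and it ranged from 0.47 to 0.55 in PC3 and from 0.58 to 0.68 in DU145 over the settings tried.

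Few members passed the 2-fold threshold. In PC3-shESS2, 3 of 41 members were more than 2-fold higher (SESN2, PPP1R15A and HERPUD1), where 3.88% of all genes were, and 0 were more than 2-fold lower, where 3.87% were. The PC3 counts depended on the scaling. With arrays scaled to their medians 3 members were more than 2-fold lower (NUPR1, STC2 and GDF15), beside 803 of all 16764 genes instead of 649. With the authors' scaled values 5 members were more than 2-fold higher, DDIT3 (1.08) and DNAJC3 (1.03) in addition, beside 792 of all 16764 genes instead of 650. In DU145-shESS2, 3 of 41 members were more than 2-fold lower (STC2, ASNS and SLC7A11), where 2.47% of all genes were, and 2 were more than 2-fold higher (GDF15 and EIF2AK3), where 2.36% were. These counts are small, and what the members show lies more in the direction of whole groups than in large single differences. Of the 41 members compared, 21 in PC3 and 20 in DU145 differed by more than 2 times the software's own error. These are larger shares than the 28.5% of all genes compared in PC3 and 22.5% in DU145. However, 40 members were well above background on all 4 arrays, and the error is larger for dim genes (1.48 for VLDLR in PC3), so the shares are not fully alike. FGF21, a secreted metabolic hormone, was not well above background on any array and has no ratio.

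**Figure D1:**
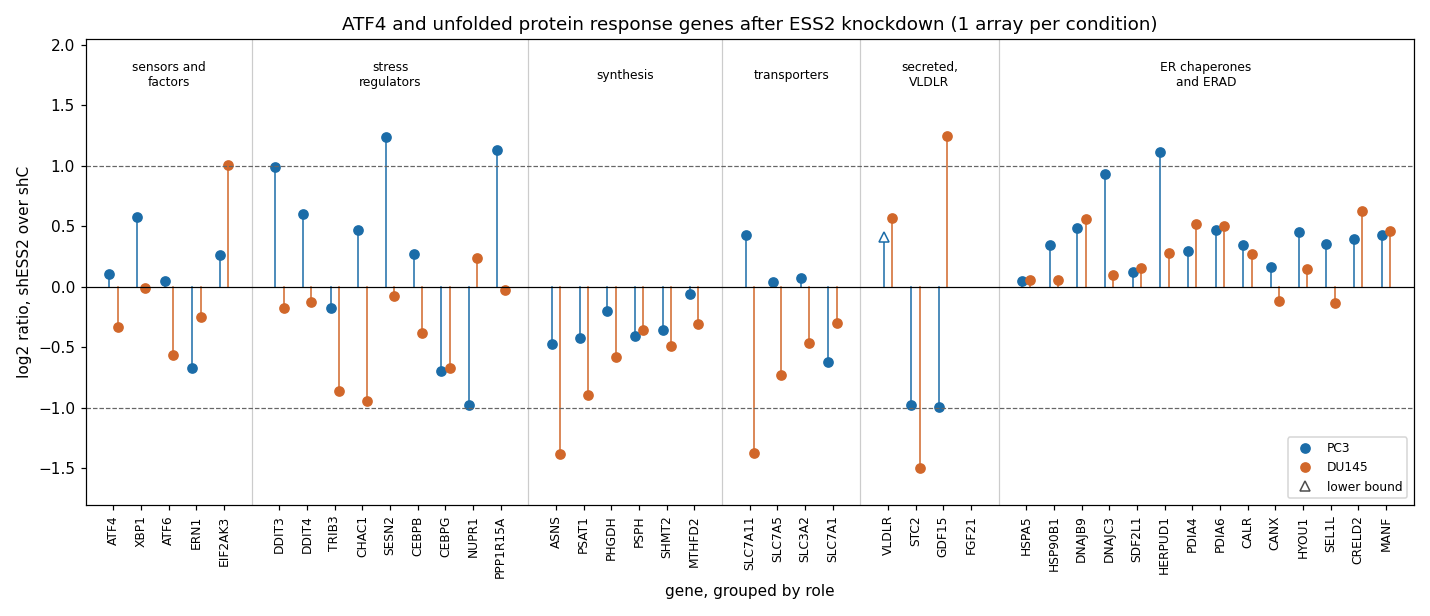
Log2 ratio of shESS2 over shC for each member, by role, in PC3 (blue) and DU145 (orange), with 1 array per condition. Dashed lines mark 2-fold, the open triangle is a lower bound (VLDLR in PC3, 0.41), and FGF21 has no value. The 6 synthesis genes lie below 0 in both lines, and the 14 chaperone and degradation genes lie above 0 apart from CANX and SEL1L in DU145.

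Among the sensors and transcription factors, the mRNA of ATF4 itself differed little. Its scaled signal was 169 in PC3-shC, 182 in PC3-shESS2, 291 in DU145-shC and 231 in DU145-shESS2. ATF4 was thus 1.07-fold higher in PC3-shESS2 and 1.26-fold lower in DU145-shESS2, and its control level was 1.72-fold higher in DU145. ATF4 is controlled largely through translation, which these arrays do not measure.

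EIF2AK3, the kinase that feeds the ATF4 branch, had scaled signals of 0.783 in PC3-shC, 0.938 in PC3-shESS2, 0.273 in DU145-shC and 0.551 in DU145-shESS2. It was higher with the ESS2 shRNA in both lines, 1.20-fold in PC3 and 2.02-fold in DU145, and in DU145 the difference fell to 0.63 on the log2 scale with another background correction (normexp), below the threshold. ERN1, the kinase and nuclease that splices XBP1, had 11.6 in PC3-shC, 7.31 in PC3-shESS2, 2.51 in DU145-shC and 2.11 in DU145-shESS2. These are 1.59-fold and 1.19-fold lower values, but the other probe of ERN1 gave a log2 ratio of 0.38 in PC3 and was not well above background in DU145-shESS2, where it was lower by at least 1.13 on that scale, so the gene's value depends on the probe.

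XBP1, which carries an ERSE of its own, had 28.5 in PC3-shC and 42.5 in PC3-shESS2, and 37.6 and 37.4 in DU145-shC and DU145-shESS2. It was 1.49-fold higher in PC3, where its 10 spots had an SD of 0.0636 for the log2 ratio, and level in DU145 with a log2 ratio of −0.01, whose sign turned under 4 of the other settings. The spliced and unspliced forms are not separated by this probe's value. ATF6 had 10.3 in PC3-shC, 10.6 in PC3-shESS2, 2.68 in DU145-shC and 1.81 in DU145-shESS2, which is level in PC3 (log2 ratio 0.04, and −0.06 with arrays scaled to their medians) and 1.48-fold lower in DU145.

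Of the 9 stress regulators among the ATF4 targets, 6 were higher in PC3-shESS2 (median log2 ratio 0.47) and 8 were lower in DU145-shESS2 (median −0.18). DDIT3 (CHOP), a transcription factor of prolonged ER stress, had scaled signals of 1.97 in PC3-shC, 3.93 in PC3-shESS2, 3.54 in DU145-shC and 3.13 in DU145-shESS2. It stood just under the threshold in PC3, 1.99-fold higher, and was 1.13-fold lower in DU145.

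SESN2, a leucine-sensing inhibitor of mTORC1, had the highest ratio of all members in PC3. Its signals were 0.407 in PC3-shC, 0.962 in PC3-shESS2, 0.995 in DU145-shC and 0.945 in DU145-shESS2, so the PC3-shC array was low and the other 3 arrays were close together. The 2.37-fold difference in PC3 became a log2 ratio of 0.90, under 2-fold, with normexp. PPP1R15A, the phosphatase subunit that restores translation by acting on eIF2 alpha, had 1.19 in PC3-shC, 2.62 in PC3-shESS2, 1.27 in DU145-shC and 1.25 in DU145-shESS2. Here the PC3-shESS2 array stood above the others, 2.20-fold higher than its control, and the DU145 arrays differed by −0.03 on the log2 scale.

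DDIT4, another inhibitor of mTORC1, and CEBPB, a basic leucine zipper factor, were each spotted 10 times. The log2 ratios were 0.60 for DDIT4 and 0.27 for CEBPB in PC3, and −0.12 and −0.38 in DU145. CEBPB had an SD between spots of 0.0561 and 0.0519 in the 2 lines, smaller than both of its ratios. The ratio of DDIT4 in DU145 was of the size of its spot SD of 0.103.

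CHAC1, which degrades glutathione, had log2 ratios of 0.47 in PC3 and −0.94 in DU145, and its second probe gave 0.51 and −0.80. TRIB3, a pseudokinase that holds ATF4 in check, had −0.18 and −0.86. CEBPG, a dimer partner of ATF4 with a CARE upstream, had nearly the same ratio in both lines, −0.69 and −0.67. NUPR1, a small stress-induced nuclear protein, went the other way from most of its group, with −0.98 in PC3 and 0.24 in DU145.

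**Figure D2:**
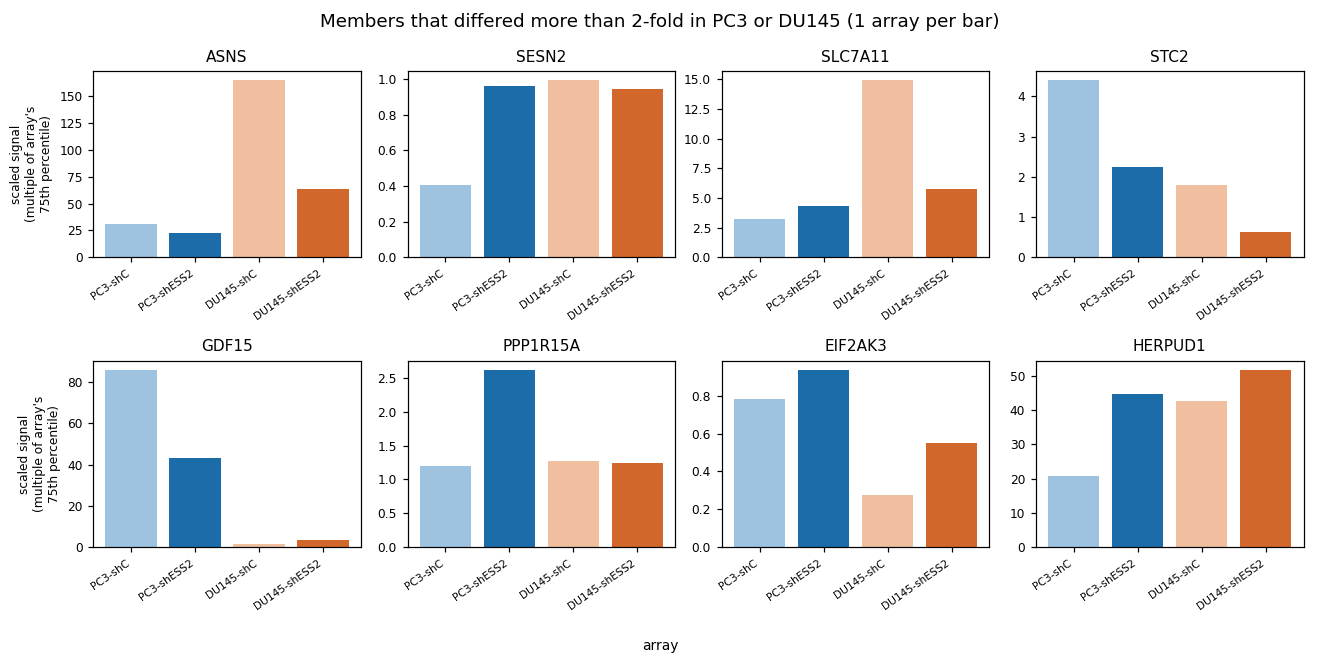
Scaled signal (multiple of the 75th percentile of each array, linear axis from 0) of the 8 members that differed more than 2-fold in PC3 or DU145, 1 array per bar. STC2 is lower with the ESS2 shRNA in both lines, GDF15 is lower in PC3 and higher in DU145, and the differences of SESN2, PPP1R15A and HERPUD1 are larger in PC3.

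The 6 genes of amino acid and one-carbon synthesis were lower with the ESS2 shRNA in both lines, with medians of −0.38 in PC3 and −0.53 in DU145. Over all genes, 33.3% of the 15478 compared in both lines were lower in both and 23.7% were higher in both. ASNS, which makes asparagine, had scaled signals of 31.4 in PC3-shC, 22.7 in PC3-shESS2, 165 in DU145-shC and 63.3 in DU145-shESS2. It was 1.39-fold lower in PC3 and 2.61-fold lower in DU145, and its level in DU145-shC was 5.26-fold that in PC3-shC. The other probes of ASNS differed: a second one gave −0.11 in PC3 and 0.04 in DU145, and the dimmest, not well above background in PC3, gave 0.03 in DU145, so the lower value of ASNS rests on its brightest probe.

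PHGDH, PSAT1 and PSPH are the 3 steps of serine synthesis. Their log2 ratios were −0.20, −0.43 and −0.41 in PC3 and −0.58, −0.90 and −0.36 in DU145. The mitochondrial folate enzymes SHMT2 and MTHFD2 had −0.36 and −0.06 in PC3 and −0.49 and −0.31 in DU145. MTHFD2 was spotted 10 times with an SD of 0.0529 in PC3, about the size of its ratio there, and it came out at 0.05 and 0.04 in PC3 under quantile normalization and with the authors' scaled values, so that 5 of the 6 genes were lower under those. In DU145 the 6 ratios ran from −1.38 to −0.31, and 6 of 6 were lower under every setting tried except the dimmest probe of ASNS.

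Of the 4 amino acid transporters, 1 was lower in PC3-shESS2 and 4 were lower in DU145-shESS2. SLC7A11, the cystine importer, had signals of 3.23 in PC3-shC, 4.35 in PC3-shESS2, 14.95 in DU145-shC and 5.78 in DU145-shESS2. The DU145-shC array was 4.63-fold above PC3-shC, and the ESS2 shRNA went with a 2.59-fold lower value in DU145 and a 1.34-fold higher value in PC3. SLC7A5 and its heavy chain SLC3A2, which together import leucine, had log2 ratios of 0.04 and 0.07 in PC3, which turned to −0.06 and −0.03 with arrays scaled to their medians, and −0.73 and −0.47 in DU145. SLC7A1, the arginine and lysine importer, was lower in both lines, −0.62 and −0.30.

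The secreted factors gave the largest values in both directions in DU145. STC2, a secreted glycoprotein of calcium and phosphate balance, had 4.41 in PC3-shC, 2.25 in PC3-shESS2, 1.79 in DU145-shC and 0.633 in DU145-shESS2. It was 1.97-fold lower in PC3 and 2.82-fold lower in DU145, the lowest ratio of any member there.

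GDF15, a stress hormone of the TGF-beta superfamily, had signals of 85.9 in PC3-shC, 43.1 in PC3-shESS2, 1.47 in DU145-shC and 3.49 in DU145-shESS2. The control arrays thus lay 58.6-fold apart, and the ESS2 shRNA went with a 1.99-fold lower value in PC3 and a 2.38-fold higher value in DU145. VLDLR, a lipoprotein receptor, was not well above background in PC3-shC, which gives a bound of at least 1.33-fold for PC3-shESS2 over PC3-shC, while in DU145 it had 1.66 and 2.46, 1.48-fold higher. Its second probe was not well above background in PC3 and gave 0.47 in DU145.

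**Figure D3:**
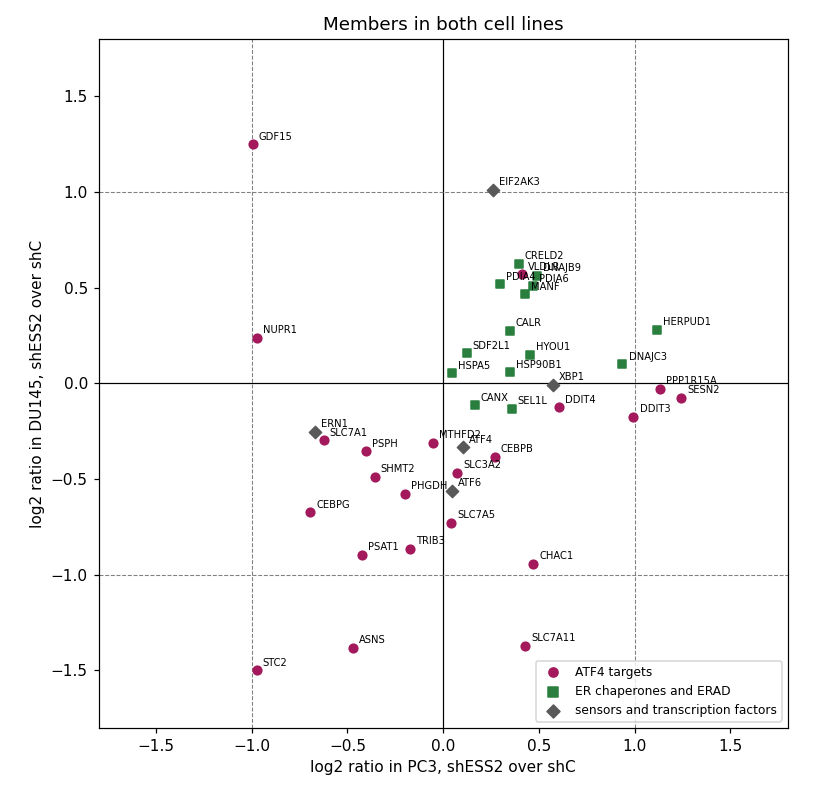
Log2 ratio of shESS2 over shC in DU145 against that in PC3 for the 41 members compared, with ATF4 targets as circles, chaperone and degradation genes as squares, and sensors and transcription factors as diamonds. VLDLR is plotted at its lower bound in PC3, and dashed lines mark 2-fold. Of the 14 squares, 12 lie above 0 on both axes, and of the 22 circles, 10 lie below 0 on both axes and 9 above 0 in PC3 and below 0 in DU145.

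Most ER chaperones were higher, while HSPA5 barely differed in either line. HSPA5 (BiP), the main ER chaperone and the usual reporter of ER stress, had scaled signals of 5.78 in PC3-shC, 5.97 in PC3-shESS2, 31.5 in DU145-shC and 32.7 in DU145-shESS2. Its log2 ratio was 0.05 in both lines and −0.06 in PC3 with arrays scaled to their medians, so HSPA5 was level within the error of the measurement, although its level in DU145-shC was 5.45-fold that in PC3-shC. HSP90B1, the ER member of the HSP90 family, had 213 in PC3-shC, 271 in PC3-shESS2, 226 in DU145-shC and 235 in DU145-shESS2. It was 1.27-fold higher in PC3 and 1.04-fold higher in DU145, and its second probe gave log2 ratios of 0.45 and 0.15.

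HERPUD1, a ubiquitin-like protein of ER-associated degradation and the 1 gene of this group with a CARE, had 20.7 in PC3-shC, 44.8 in PC3-shESS2, 42.7 in DU145-shC and 51.8 in DU145-shESS2. It was 2.17-fold higher in PC3 and 1.21-fold higher in DU145. The co-chaperones of HSPA5 followed the same direction. DNAJB9 had log2 ratios of 0.49 in PC3 and 0.56 in DU145, and DNAJC3, which also inhibits eIF2 kinases, had 0.94 and 0.10. SDF2L1 had 0.12 and 0.16.

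The disulfide isomerases PDIA4 and PDIA6 had log2 ratios of 0.30 and 0.47 in PC3 and 0.52 and 0.51 in DU145. For the secreted ER proteins CRELD2 and MANF they were 0.39 and 0.43 in PC3 and 0.63 and 0.47 in DU145. These 4 genes and DNAJB9 had the highest ratios of the group in DU145. HYOU1, an exchange factor for HSPA5, had 0.45 in PC3 and 0.15 in DU145.

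The lectin chaperones of glycoproteins, CALR and CANX, differed: CALR had 0.35 and 0.27, whereas CANX had 0.16 in PC3 and −0.11 in DU145, where its second probe gave 0.23. SEL1L, a scaffold of the degradation complex, had 0.36 in PC3 and −0.13 in DU145. Its probes did not give 1 answer in PC3, with 0.23 and −0.72 from the others, and in DU145 they gave −0.27 and −0.31.

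Within the chaperone group, genes with an exact match to the ERSE in the window did not stand above those without such a match. Sites that differ from the searched letters or lie outside the window were not looked for, so a gene without a match may still hold the element. The 6 genes with it had a median log2 ratio of 0.35 in PC3 and 0.17 in DU145, and the 8 without it 0.44 and 0.22. Among the ATF4 targets, the 5 measured genes with a CARE had medians of −0.47 in PC3 and −0.67 in DU145, and the 13 with a window but no match 0.04 and −0.31. In DU145 the targets with a CARE were lower in 5 of 5 cases and those without it in 11 of 13. With the second probe of ASNS, a choice made after seeing the data, the medians of the genes with a CARE were −0.11 in PC3 and −0.47 in DU145 and 4 of 5 were lower in DU145. These medians rest on few genes and are given as a description.

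The spread of the single genes shows how far both groups overlapped. In PC3, 13 of 22 ATF4 targets lay below the lowest chaperone (HSPA5), 7 lay within the range of the chaperones and 2 lay above it. In DU145, 16 of 22 targets lay below the lowest chaperone (SEL1L), 5 within the range and 1, GDF15, above it. Over both lines, 12 of 14 chaperone and degradation genes were higher in both and 0 were lower in both, while 1 of 22 targets was higher in both, 10 were lower in both and 9 were higher in PC3 and lower in DU145. Over all genes these shares were 23.7% higher in both, 33.3% lower in both and 19.7% higher in PC3 and lower in DU145.

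Other genes of the same pathways, taken from lists that hold no member, are given beside the background shares above. Of 29 further ATF4 targets, such as aminoacyl-tRNA synthetases, 25 were lower in DU145-shESS2 (median −0.43) and 18 in PC3-shESS2 (median −0.14). Past 2-fold in PC3 were CBS (−2.06) and NIBAN1 (−1.19) on the lower side and ATF3 (2.58) and CTH (1.39) on the higher side, and in DU145 PCK2 (−1.31). CBS and CTH are consecutive enzymes that turn homocysteine into cysteine, and they differed in opposite directions in PC3. ATF3 is a stress-induced repressor that many pathways raise, and it went from 7.15 in PC3-shC to 42.8 in PC3-shESS2 and from 14.81 to 18.03 in DU145.

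Of the further unfolded protein response genes, 21 of 29 were higher in PC3 (median 0.16) and 28 of 30 in DU145 (median 0.23). SEC24D, a coat protein of vesicles that leave the ER, was the 1 gene of this list past 2-fold, at 1.15 in DU145 and 0.58 in PC3. The kinases, subunits and exchange factors of eIF2, of which 11 were compared, had medians of −0.14 in PC3 and −0.13 in DU145. EIF2AK2, the interferon-induced kinase that senses double-stranded RNA, was the exception, from 30.7 in PC3-shC to 10.5 in PC3-shESS2 and from 8.40 to 7.29 in DU145.

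**Figure D4:**
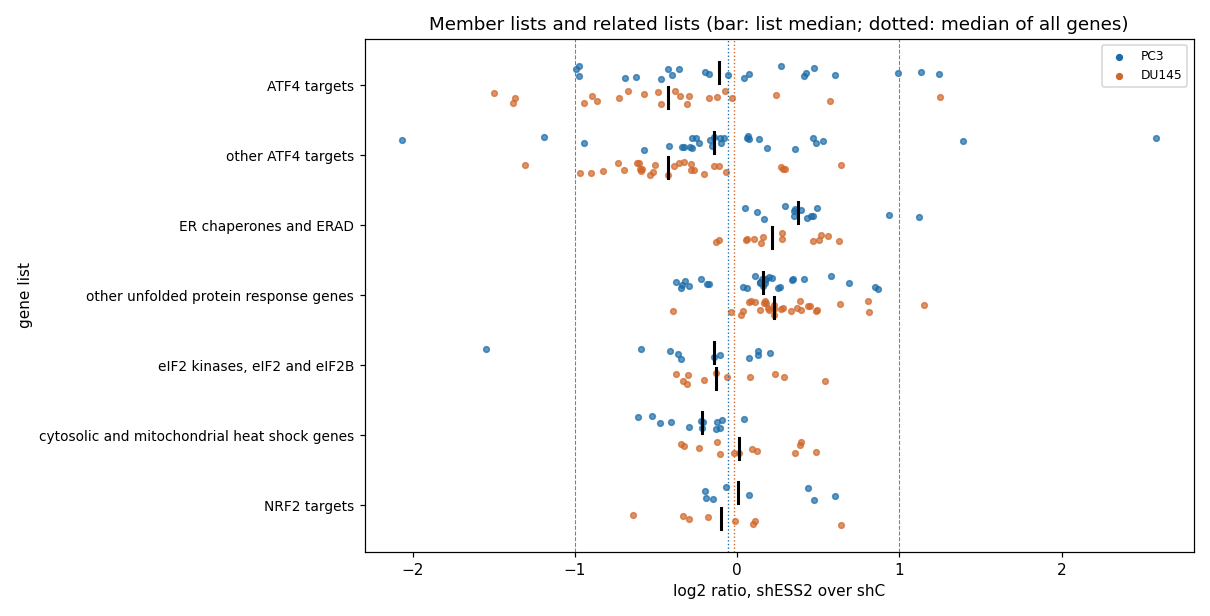
Log2 ratio of shESS2 over shC of single genes (points) in the ATF4 target and chaperone lists and in related lists, in PC3 (blue) and DU145 (orange), with the list median as a black bar and the median of all genes as dotted lines. Vertical scatter of the points is only for legibility. Medians of both ATF4 lists lie at −0.43 in DU145, and those of both unfolded protein response lists lie above 0 in both lines.

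The only replication of the knockdown is the pair of cell lines, so limma was fitted to 17126 genes over all 4 arrays with a term for the line, which leaves 1 residual degree of freedom. No member passed an adjusted p of 0.05, nor did any other gene (0 genes, 0%), and the lowest adjusted p was 0.746. At an unadjusted p under 0.05 the fit held 5 of 41 members and 1047 of all genes (6.11%). STC2 had the lowest p of the members, with a mean log2 ratio of −1.24 ± 0.22 (SE) and an adjusted p of 0.746 by limma. The other 4 were CEBPG (−0.68 ± 0.18), ASNS (−0.93 ± 0.29), PSAT1 (−0.66 ± 0.21) and DNAJB9 (0.53 ± 0.18), each lower in both lines except DNAJB9, which was higher in both. The count at an unadjusted p under 0.05 by limma depended on the setting. It was 14 members and 1213 of all genes with normexp, and 0 members and 23 genes without the term for the line.

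The control arrays of the lines differed in the members about as often as in all genes. Of 41 members, 6 were more than 2-fold higher in PC3-shC, where 22.1% of all 17475 genes compared were, and 10 were more than 2-fold higher in DU145-shC, where 19.9% were. Among the synthesis genes, 5 of 6 were higher by any size in DU145-shC, PSAT1 by 10.5-fold, beside 7964 of all 17475 genes. On the side of PC3-shC were the sensors ERN1 (4.64-fold, but 1.10-fold by its second probe), ATF6 (3.84-fold) and EIF2AK3 (2.87-fold). Line and slide cannot be told apart in these values, whose order is therefore a description of the 4 arrays.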

How the data were processed

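The authors deposited the scanner output of 4 one-colour Agilent arrays, made with Feature Extraction (12.1.0.3 for PC3 and 12.0.3.1 for DU145, per the file headers), in which the intensity of each spot is background-subtracted and not scaled between arrays. A second deposited table holds the authors' scaled intensity, which equals the first times 1 constant per array. Intensities are deposited with 3 significant digits. Sample groups came from the labels, and 0.1 µg of total RNA was labelled per array.

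Log2 intensities of non-control spots were reduced by the 75th percentile of each array (263, 290, 212 and 218 for PC3-shC, PC3-shESS2, DU145-shC and DU145-shESS2), spots flagged as outliers were left out and spots of a probe were averaged. Between 50.8 and 52.6% of the spots were well above background, and 0 were saturated. The number of arrays limits the precision. Symbols came from matching probe accessions to a RefSeq gene table (GRCh38.p14), which named 35080 of 58201 probes. Where several probes named a gene, the brightest on average over the arrays stood for it. Genes well above background on at least 1 array of a line were compared, and a dim value was raised to the lowest signal well above background on that array if that was higher, which makes the fold a lower bound ("at least"). Differences past 2-fold were counted. The limma fit (version 3.58.1, R 4.3.3) took genes that 2 or more arrays measured well above background, and p-values were adjusted by Benjamini-Hochberg over all of them. With the term for the line, its p-values rest on how far the difference of shESS2 from shC disagreed between the 2 lines. They do not measure the spread between cultures of a line. The scripts were tested on simulated data.

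Members and lists were chosen with earlier results of these data known. Every member is named. Signals on all arrays are given for members past 2-fold and for 8 fixed genes, and of other lists at most 4 genes past 2-fold per line. Alternatives were median and quantile scaling, normexp (offset 50), the authors' scaled values, other filters, other probe rules and outlier spots kept. Protein sequences were not used here.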

Additional observations from a re-analysis of the deposited data

Results flagged for a closer look

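The ratio of 5 members had opposite signs in the 2 lines, each beyond 2 times the SD of single spots, with more than a 2-fold difference between the lines (5 of 41, 12.2%). The same held for 942 of 15478 genes compared in both lines (6.09%). In DU145 the ratios of DDIT3 (−0.18) and NUPR1 (0.24) lay within 2 times the software's error of 0.204, and neither error covers the spread between cultures. With 1 array per condition this difference was not tested, and line and slide cannot be told apart. The log2 ratio in PC3 minus that in DU145 was 1.17 for DDIT3, 1.41 for CHAC1 and 1.798 for SLC7A11, which were higher in PC3-shESS2 and lower in DU145-shESS2. It was −1.21 for NUPR1 and −2.24 for GDF15, which were lower in PC3-shESS2 and higher in DU145-shESS2. CHAC1 is the 1 gene of the 5 with a second probe, which gave the same signs.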

How the results depend on the processing

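Over the 10 other settings, 800 of 817 member ratios kept their sign, 4 lost and 8 gained a 2-fold difference. ASNS in DU145 turned from −1.38 to 0.028 with the dimmest measured probe and came to −0.44 with the mean of its probes. Scaling the arrays to their medians moved the median of all genes in PC3 from −0.06 to −0.16. Under it 3 members instead of 0 were more than 2-fold lower in PC3 (NUPR1, STC2 and GDF15), beside 803 of all genes instead of 649. The ATF4 target median there was −0.22 and the chaperone median 0.27, and 61.1% of the genes past 2-fold in PC3 were lower instead of 50%. With the authors' scaled values 5 members instead of 3 were more than 2-fold higher in PC3, beside 792 of all genes instead of 650. The target median there was −0.0247 and the chaperone median 0.47. Quantile normalization gave a target median of −0.023 in PC3. With normexp 1 member instead of 2 was more than 2-fold higher in DU145, 323 lower and 248 higher genes passed 2-fold in PC3 instead of 649 and 650, and 77 and 139 in DU145 instead of 416 and 397. Without the filter on dim genes these were 1193 and 1431 in PC3 and 1061 and 959 in DU145. The cause was not tested.

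Counts of chaperones higher stayed at 13 or 14 of 14 in PC3 and 12 or 13 in DU145, and those of ATF4 targets lower at 11 to 14 in PC3 and 18 to 20 in DU145. These counts were added after seeing the data. No gene passed an adjusted p of 0.05 by limma under any setting. The genes at an unadjusted p under 0.05 by limma were 1047 of 17126 in the main fit with the cell line block and 23 without the block. With normexp they were 1213 of 17131. The members were 5, 0 and 14 in the same order. The fit with the cell line block is paired by line, and slide as a block is the same fit. Dim genes have bounds only.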

Other observations

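Lists of neighbouring stress pathways, which hold no member, had no gene past 2-fold in either line, where all genes had 3.87% lower and 3.88% higher in PC3 and 2.47% and 2.36% in DU145, so that few were to be found among 21 genes. Of 13 cytosolic and mitochondrial heat shock genes, 12 were lower in PC3-shESS2 (median log2 ratio −0.22, lowest −0.61) and 6 in DU145-shESS2 (median 0.01), where 55.7% and 52.8% of all genes were lower. The 8 targets of NRF2, the factor of the oxidative stress response, had medians of 0.00 in PC3 and −0.10 in DU145. On the control arrays these lists stood apart between the lines, with 10 of 13 heat shock genes more than 2-fold higher in PC3-shC and 7 of 8 NRF2 targets more than 2-fold higher in DU145-shC, beside 22.1% and 19.9% of all genes.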
